A study of Mus musculus with 12 samples.

Results

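The genes examined here are 45 genes of mitosis and chromosome segregation, chosen by symbol and found once each among the 23700 loci of every RNA library. They cover the cyclin-dependent kinase Cdk1 with its cyclins, the mitotic kinases, the spindle checkpoint, the chromosomal passenger complex, kinesin motors, the kinetochore, spindle proteins, topoisomerase II with condensin, and cytokinesis. In mitosis, Cdk1 bound to cyclin B drives condensation of the chromosomes and assembly of the spindle, and kinetochores couple each sister chromatid to microtubules. A checkpoint holds the cell until all chromosomes are attached, after which the anaphase-promoting complex (APC/C) with Cdc20 marks securin and cyclin B for destruction and the cell divides. Most of these genes are transcribed mainly in late S phase, G2 and mitosis, so that resting lymphocytes hold little of their mRNA and lymphocytes dividing after activation hold much.

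All cells were CD4+ T cells of C57BL/6J mice. Bach2KO iTreg libraries (3) came from Bach2-deficient cells and WT iTreg libraries (3) from wild type cells, both sorted as naive cells (CD44-, CD25-, CD62L+) and cultured for 3 days on plates with antibodies to CD3 and CD28 in IL-2 and human TGF-β1, the conditions that induce regulatory T cells. Wild type Th1, Th2 and Th17 libraries, 1 each, came from such cells after 3 days with the same 2 antibodies. Th1 cultures had IL-12 with anti-IL-4, Th2 cultures IL-4 with anti-IFN-γ, and Th17 cultures IL-6 and human TGF-β1 with both of those neutralizing antibodies. The naive library, also 1, came from freshly sorted wild type cells. A chromatin immunoprecipitation (ChIP) of the transcription factor Bach2, with its input lysate, was made from WT iTreg cells. The labels do not describe the Bach2KO allele or whether numbered replicates were separate mice or cultures, so p-values measure the spread between these libraries, which may be technical. Levels are FPKM, mapped fragments scaled to transcript length and to the size of the library.

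Bach2 itself had 3.91, 3.39 and 4.12 FPKM in Bach2KO iTreg, against 17.9, 17.7 and 17.2 FPKM in WT iTreg, lower in every library labelled Bach2KO. Foxp3, the regulatory T cell factor, had 7.68, 19.7 and 5.81 FPKM in Bach2KO iTreg and 69.6, 66.7 and 81.1 FPKM in WT iTreg. The summed level of 9 B cell markers was 13.7 to 20.7 FPKM in Bach2KO iTreg and 11.6 to 65.1 FPKM in WT iTreg. It was 1.13 to 3.57 FPKM in the other 4 libraries. Of the 9 markers 7 were high enough to test, and 0 were called higher and 2 lower (limma, adjusted p under 0.05, as for all calls). In WT replicates 1, 2 and 3 the summed B cell level was 65.1, 11.6 and 36.7 FPKM, where 44 of the mitotic genes, all but Smc4, summed to 217.0, 233.8 and 232.7 FPKM, so that replicate 1 was the highest for B cell genes and the lowest for mitotic genes. The 9 myeloid and dendritic cell markers found summed to 2.66 to 3.68 FPKM in Bach2KO iTreg and 3.43 to 5.04 FPKM in WT iTreg. Of these, 2 were tested: Itgam was lower, with 0.189, 0.117 and 0.124 FPKM in Bach2KO iTreg and 3.86, 4.20 and 3.03 FPKM in WT iTreg, and Zbtb46 was higher, with 3.03, 3.52 and 2.45 FPKM in Bach2KO iTreg and 0.356, 0.0979 and 0.252 FPKM in WT iTreg. Markers of CD8, natural killer and γδ T cells, 6 found, summed to 11.1 to 12.1 FPKM in Bach2KO iTreg and 4.52 to 5.47 FPKM in WT iTreg. Both that were tested, Cd8a and Cd8b1, were called higher. Cd8a had 2.30, 2.30 and 2.09 FPKM in Bach2KO iTreg and 0.0999, 0.0802 and 0.0974 FPKM in WT iTreg. It was high enough to test only because of its Bach2KO levels, so its call carries little weight.

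Markers of T cell state also differed between the genotypes. All 6 genes of naive T cells were lower in Bach2KO iTreg, where 33.6% of all tested loci were, with a median log2 difference of -1.44. Their sums were 659.7 to 780.1 FPKM in Bach2KO iTreg and 1969 to 2062 FPKM in WT iTreg. Of 9 genes of T helper and regulatory lineages, 6 were higher and Foxp3 lower, where 41% of all tested loci were higher and 33.6% lower. The 9 genes summed to 345.5 to 477.6 FPKM in Bach2KO iTreg and 156.0 to 196.9 FPKM in WT iTreg. Most of the Bach2KO sums came from the IL-2 receptor gene Il2ra. It had 287.9, 379.8 and 268.2 FPKM in Bach2KO iTreg and 72.2, 68.0 and 95.5 FPKM in WT iTreg. Tbx21, the Th1 factor, had 11.3, 14.7 and 9.18 FPKM in Bach2KO iTreg and 0.148, 0.0412 and 0.131 FPKM in WT iTreg. The Th2 cytokine gene Il4 had 13.5, 6.70 and 14.4 FPKM in Bach2KO iTreg and 0, 0 and 0.0810 FPKM in WT iTreg. Tbx21, Il4 and the cytokine genes Ifng and Il13 had WT means under 0.5 FPKM, the mean needed for testing. They were tested only because of their Bach2KO levels, so a call of higher carries little weight for them. Of 7 genes of the CD4 T cell list, 0 were higher and 3 lower, the latter near the 33.6% of all tested loci. The 7 genes summed to 1213 to 1409 FPKM in Bach2KO iTreg and 1567 to 1589 FPKM in WT iTreg. The part of these marker differences in the results on mitotic genes was not tested.

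Mitotic genes were far higher in Bach2KO iTreg than in WT iTreg. Without Smc4, which went the other way, the other 44 genes summed to 2350.9, 2351 and 2410 FPKM in Bach2KO iTreg, against 217.0, 233.8 and 232.7 FPKM in WT iTreg. The helper libraries were near the Bach2KO level, with 1974 FPKM in Th1, 2487 in Th2 and 1497 in Th17, and the naive library had 54.8 FPKM. WT iTreg thus lay between naive and helper cells, and the Bach2KO libraries lay between Th1 and Th2 in FPKM. As a share of the summed FPKM of each library, the 45 genes made up 0.452%, 0.444% and 0.463% in Bach2KO iTreg. That share was 0.446% in Th1, 0.556% in Th2 and 0.370% in Th17, so on this scale Bach2KO iTreg was about level with Th1. In bulk RNA, a larger share of dividing cells and more mitotic mRNA per dividing cell cannot be told apart.

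**Figure D1:**
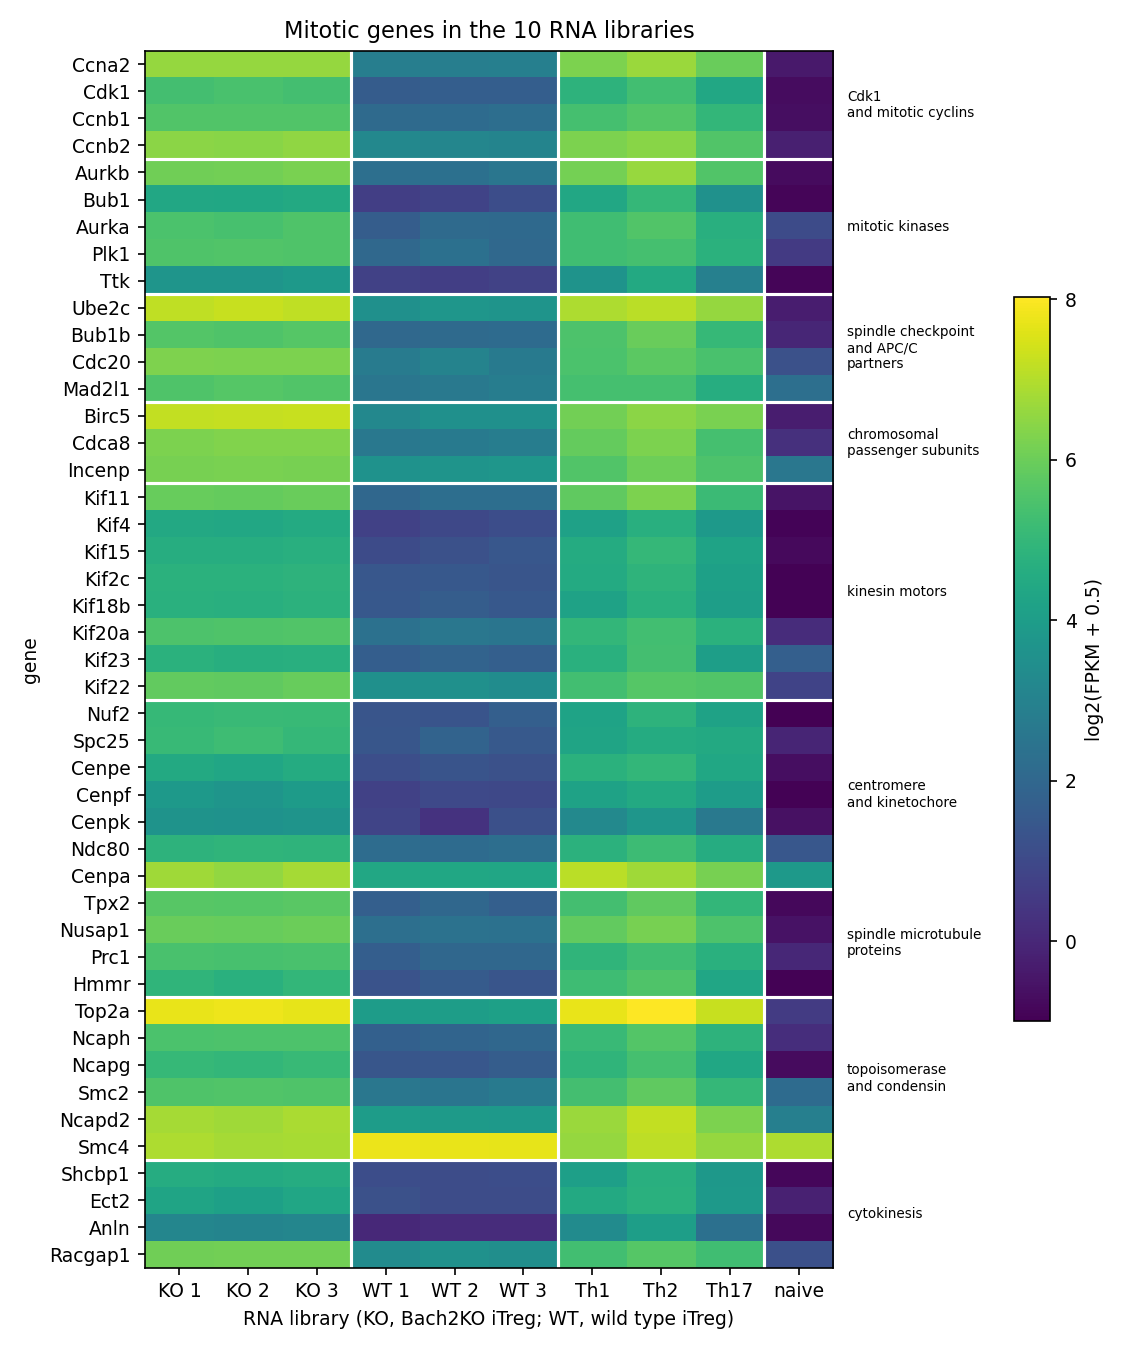
Levels of the 45 mitotic genes as log2(FPKM + 0.5) (colour), with genes in rows by role and the 10 RNA libraries in columns: 3 Bach2KO iTreg (KO), 3 WT iTreg (WT), Th1, Th2, Th17 and naive. Every row but Smc4 is dimmer in the WT and naive columns than in the Bach2KO columns, which are close to the helper columns in brightness.

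By limma with Benjamini-Hochberg adjustment over all 11473 tested loci, 44 of the 45 genes were called higher in Bach2KO than in WT iTreg at an adjusted p under 0.05, where 41% of all tested loci were called higher. One gene, Smc4, was called lower, where 33.6% of all tested loci were called lower. Calls of either direction were common, so the size was counted as well: all 44 were called and at least 4-fold higher on the log2(FPKM + 0.5) scale, against 4.92% of tested loci. The median log2 difference over the 45 genes was 3.42, and over all tested loci 0.07. The largest adjusted p among the 44 was 6.2e-05, for Cenpk, a gene of the inner kinetochore, whose WT values of 1.29, 0.752 and 1.80 FPKM varied most. The authors' scaling leaves the genotypes with different sums, and the split of all calls depended on it: 4709 loci were higher and 3857 lower with the deposited values, 3715 and 4890 after quantile normalization, and 3265 and 5434 after equal sums. Those 2 scalings moved the median of all tested loci to -0.09 and -0.19, and the median of the mitotic genes to 3.25 and 3.17, with 44 higher and Smc4 lower under each.

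**Figure D2:**
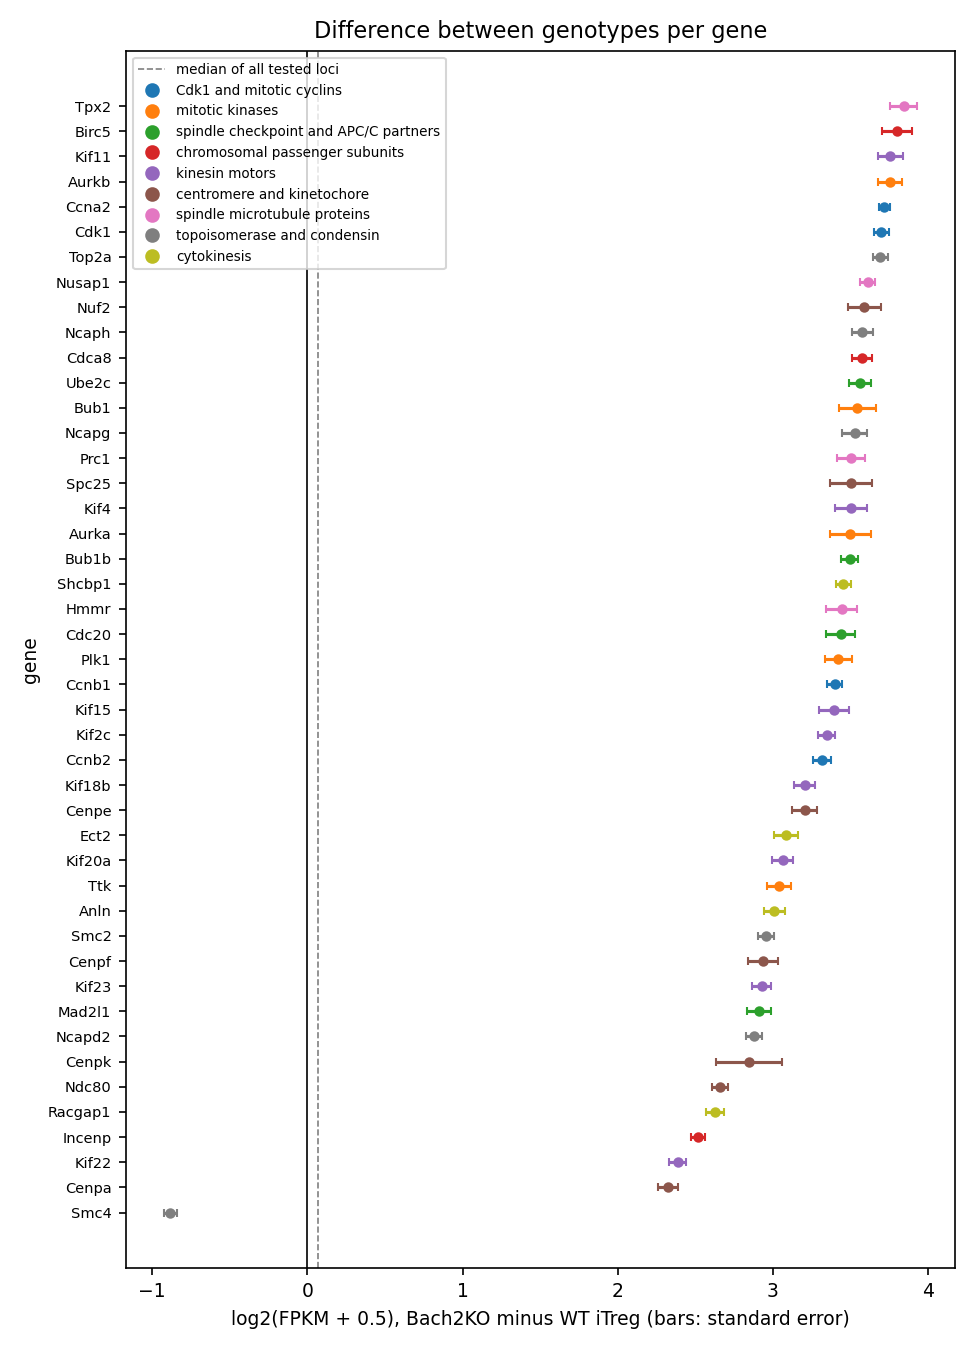
Difference in log2(FPKM + 0.5), Bach2KO minus WT iTreg, for each mitotic gene (points, coloured by role; bars, standard error from limma over 3 libraries a group), with the median of all tested loci as a dashed line. The 44 genes on the right lie between 2.32 for Cenpa and 3.84 for Tpx2, and Smc4 lies alone at -0.88.

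The promoters of genes expressed in G2 and mitosis are known to carry CCAAT boxes, bound by the factor NF-Y, and the cell cycle genes homology region (CHR), which the DREAM complex and the MuvB proteins with B-Myb bind. RefSeq promoter windows (GRCm38.p6, 250 bases before to 50 after the annotated start) were matched by symbol for 38 of the 45 genes. The windows of Cdk1, 2 cyclin genes, Cdc20 and Top2a, which come from 3 of the 9 roles and all hold both motifs, are shown from 150 bases before the start to 30 after, on the strand of the gene. Capitals mark CCAAT or its reverse complement ATTGG, and the CHR letters TTTGAA or TTTAAA, or the reverse complement TTCAAA. The windows are chr10:69352883-69353062 for Cdk1, chr13:100786457-100786636 for Ccnb1, chr9:70421525-70421704 for Ccnb2, chr4:118437314-118437493 for Cdc20 and chr11:99024160-99024339 for Top2a, and all 5 genes lie on the minus strand.
Cdk1: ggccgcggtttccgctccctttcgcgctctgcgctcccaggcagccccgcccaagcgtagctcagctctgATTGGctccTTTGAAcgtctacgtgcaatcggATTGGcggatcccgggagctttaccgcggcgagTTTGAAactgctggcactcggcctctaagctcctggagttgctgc
Ccnb1: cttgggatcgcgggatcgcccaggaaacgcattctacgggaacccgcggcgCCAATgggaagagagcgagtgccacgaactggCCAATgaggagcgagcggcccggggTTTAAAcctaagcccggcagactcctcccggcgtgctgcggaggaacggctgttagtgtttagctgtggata
Ccnb2: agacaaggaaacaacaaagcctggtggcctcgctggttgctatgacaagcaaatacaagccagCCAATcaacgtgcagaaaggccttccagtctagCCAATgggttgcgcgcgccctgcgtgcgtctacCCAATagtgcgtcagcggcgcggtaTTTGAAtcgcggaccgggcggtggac
Cdc20: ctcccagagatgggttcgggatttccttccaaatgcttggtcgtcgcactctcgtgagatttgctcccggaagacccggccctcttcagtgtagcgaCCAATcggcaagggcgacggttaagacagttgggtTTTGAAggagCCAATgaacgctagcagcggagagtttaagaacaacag
Top2a: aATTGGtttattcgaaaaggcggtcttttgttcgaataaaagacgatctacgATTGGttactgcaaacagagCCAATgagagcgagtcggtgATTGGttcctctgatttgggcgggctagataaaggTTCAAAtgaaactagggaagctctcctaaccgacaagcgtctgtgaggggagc
In Ccnb2 the 3 CCAAT boxes began at -87, -54 and -21, counted from 0 at the annotated start, 33 bases apart each, and a TTTGAA began at 4. In Cdk1 a TTTGAA began at -15, with reversed CCAAT boxes at -80 and -48 that were 32 bases apart. Another box of Cdk1 lay 128 bases further upstream, outside the letters shown. The 2 boxes of Ccnb1, at -99 and -67, were 32 bases apart and those of Cdc20 45, and the boxes of Top2a, 2 of them outside the letters shown, were 20 to 51 bases apart. Over the 20 matched genes with at least 2 boxes in a window, the starts of neighbouring boxes lay from 3 bases apart in Ube2c to 179 in Kif22. The Ube2c matches at -186 and -183 overlap, the same stretch read on both strands.

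Over all 38 matched genes, 32 (84.2%) held a CHR on either strand in their promoter, against 30.6% of the 27025 genes in the promoter table and 22.2% of the 7998 of them that were tested in iTreg. A CCAAT box on either strand was in 29 (76.3%), against 41.1% of all genes and 43.4% of the tested ones. Both motifs were in 27 (71.1%), against 12.2% and 9.1%, and at least 2 CCAAT boxes were in 20 (52.6%), against 13.3% and 17.4%. The 4 genes with neither motif were Mad2l1, Ncaph, Nuf2 and Nusap1, all called higher in Bach2KO iTreg. The motifs were searched separately, so that matches that overlap by a base count for both. CHR matches clustered around the start (median -16) and CCAAT boxes just upstream of it (median -66). TGANTCA, the core that Bach and AP-1 factors share, was in 0 of the 38 windows, against 9.0% of all genes and 5.8% of the tested ones. A match is a description of letters and not of a bound site.

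**Figure D3:**
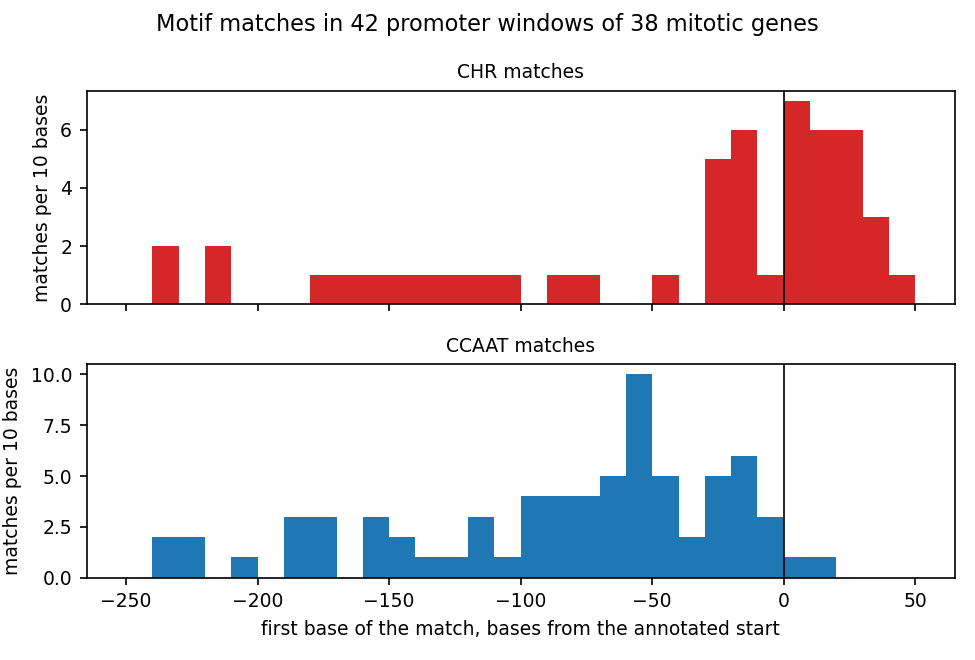
Positions of CHR (top) and CCAAT (bottom) matches, either strand, in the 42 RefSeq promoter windows of 38 mitotic genes, counted per 10 bases from 250 bases before to 50 after the annotated start (vertical line). CHR matches gather around the line (median -16), and CCAAT boxes gather upstream of it (median -66).

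Cdk1 and the mitotic cyclins rose together, 4 of 4. Cdk1, the kinase whose activity starts mitosis, had 40.0, 42.5 and 39.9 FPKM in Bach2KO iTreg, against 2.61, 2.73 and 2.72 FPKM in WT iTreg, and 28.3 FPKM in Th1, 39.1 in Th2, 20.5 in Th17 and 0.110 in naive cells. With the deposited values, the 3 Bach2KO values were above those of Th1 and Th17 and only just above that of Th2, an order that depends on scaling. The 3 WT values were far below all 3 helper values, and the genotypes did not overlap. Its mean was 15.2-fold higher in Bach2KO, a log2 difference of 3.70 ± 0.047 (SE; limma with Benjamini-Hochberg, adjusted p = 4.6e-07). Cyclin A2 (Ccna2), which partners Cdk2 and Cdk1 from S phase into early mitosis, had 95.7, 95.6 and 97.2 FPKM in Bach2KO iTreg and 6.79, 6.79 and 6.97 FPKM in WT iTreg, with 74.6 FPKM in Th1, 100.2 in Th2, 61.6 in Th17 and 0.276 in naive cells. Its libraries agreed most closely of all 45 genes, with coefficients of variation of 0.928% in Bach2KO and 1.49% in WT, and its log2 difference was 3.72 ± 0.035 (adjusted p = 2.4e-07, limma). Cyclin B1 (Ccnb1) had 47.7, 46.8 and 47.4 FPKM in Bach2KO iTreg and 3.89, 3.97 and 4.26 FPKM in WT iTreg, with 40.6 FPKM in Th1, 48.8 in Th2, 30.9 in Th17 and 0.124 in naive cells. Cyclin B2 (Ccnb2) had 86.3, 84.9 and 92.8 FPKM in Bach2KO iTreg and 8.85, 8.29 and 8.002 FPKM in WT iTreg, with 75.1 FPKM in Th1, 86.0 in Th2, 47.5 in Th17 and 0.371 in naive cells. Neither cyclin overlapped between genotypes, and Bach2KO and Th2 levels were close for both. The log2 differences were 3.40 for Ccnb1 and 3.32 for Ccnb2.

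All 5 mitotic kinases rose. Aurkb, the catalytic subunit of the chromosomal passenger complex that corrects faulty attachments, had 67.3, 68.5 and 74.2 FPKM in Bach2KO iTreg, against 4.37, 4.54 and 5.28 FPKM in WT iTreg, and 69.1 FPKM in Th1, 98.1 in Th2, 47.1 in Th17 and 0.0998 in naive cells. Bach2KO values were about level with Th1 and below Th2, and the log2 difference between genotypes was 3.76 ± 0.079 (SE; adjusted p = 1.1e-06, limma). Plk1, the polo-like kinase of mitotic entry and centrosome maturation, had 46.0, 47.7 and 46.4 FPKM in Bach2KO iTreg and 3.61, 4.53 and 3.62 FPKM in WT iTreg, with 37.7 FPKM in Th1, 40.5 in Th2, 26.4 in Th17 and 0.948 in naive cells. The Bach2KO values exceeded those of all 3 helpers, and the log2 difference was 3.42 ± 0.088 (adjusted p = 1.7e-06, limma). Ttk (Mps1), which starts checkpoint signalling at kinetochores, changed least of the 5, with 12.6, 12.4 and 14.4 FPKM in Bach2KO iTreg and 1.18, 1.09 and 1.20 FPKM in WT iTreg, and a log2 difference of 3.04. Its other levels were 12.0 FPKM in Th1, 22.0 in Th2, 7.06 in Th17 and 0.0431 in naive cells, and the Th2 value was above every iTreg value. Bub1, a checkpoint kinase, differed by 3.54, and Aurka, the centrosomal Aurora kinase, by 3.50.

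The checkpoint and APC/C genes rose, 4 of 4. Ube2c, the ubiquitin-conjugating enzyme of the APC/C, had 144, 155 and 144 FPKM in Bach2KO iTreg and 10.96, 13.0 and 12.2 FPKM in WT iTreg, with 121 FPKM in Th1, 136 in Th2, 95.8 in Th17 and 0.323 in naive cells. Cdc20, the APC/C activator that the checkpoint blocks, had 78.1, 75.0 and 75.4 FPKM in Bach2KO iTreg and 6.27, 7.68 and 5.90 FPKM in WT iTreg, with 43.5 FPKM in Th1, 53.9 in Th2, 42.6 in Th17 and 1.89 in naive cells. With the deposited values both genes were higher in every Bach2KO library than in any helper library, but for Ube2c the margin over Th2 was narrow and depends on scaling. The log2 difference between genotypes was 3.56 ± 0.071 for Ube2c (SE; adjusted p = 8.8e-07, limma) and 3.44 ± 0.095 for Cdc20 (adjusted p = 2.0e-06). Mad2l1 (Mad2), which binds Cdc20 while chromosomes are unattached, had 45.9, 50.0 and 47.2 FPKM in Bach2KO iTreg and 5.36, 5.83 and 6.59 FPKM in WT iTreg. Its other levels were 40.9 FPKM in Th1, 41.0 in Th2, 23.9 in Th17 and 4.39 in naive cells, so that Mad2l1 in WT iTreg was close to naive, and its log2 difference between genotypes was 2.91. BubR1 (Bub1b), a subunit of the complex that inhibits the APC/C, differed by 3.49.

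The chromosomal passenger subunits rose, 3 of 3, and included the gene that stood highest over the helpers. Birc5 (survivin), which brings the complex to centromeres, had 148, 149.8 and 153 FPKM in Bach2KO iTreg and 8.77, 11.2 and 11.2 FPKM in WT iTreg, with 68.9 FPKM in Th1, 86.4 in Th2, 73.0 in Th17 and 0.326 in naive cells. The Bach2KO mean was 1.74 times the Th2 value, the highest such ratio of the 45 genes, and the log2 difference between genotypes was 3.80 ± 0.097 (SE; adjusted p = 1.7e-06, limma). Incenp, the scaffold of the complex, had 71.2, 72.9 and 72.3 FPKM in Bach2KO iTreg and 11.6, 12.2 and 12.8 FPKM in WT iTreg, with 46.9 FPKM in Th1, 65.2 in Th2, 44.8 in Th17 and 5.49 in naive cells. It kept a higher level in WT iTreg and naive cells than Birc5, and its log2 difference was 2.51. Borealin (Cdca8) differed by 3.57.

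All 8 kinesin genes rose. Kif11 (Eg5), the motor that pushes spindle poles apart, had 60.6, 59.2 and 62.2 FPKM in Bach2KO iTreg and 3.50, 4.34 and 4.28 FPKM in WT iTreg, with 55.7 FPKM in Th1, 74.8 in Th2, 34.6 in Th17 and 0.189 in naive cells. Its log2 difference was 3.76 ± 0.082 (SE; adjusted p = 1.2e-06, limma), and its Bach2KO values lay between Th1 and Th2. Kif22 (Kid), a chromosome-arm motor, had 58.1, 56.6 and 60.0 FPKM in Bach2KO iTreg and 11.1, 11.2 and 10.0 FPKM in WT iTreg, with 39.0 FPKM in Th1, 49.3 in Th2, 47.3 in Th17 and 1.25 in naive cells. Its difference was the smallest of the motors at 2.39. In between were Kif20a (3.06) and Kif23 (2.93), motors of the central spindle and cytokinesis, Kif18b (3.21) and Kif2c (3.35), which act on microtubule ends, the spindle motor Kif15 (3.39) and the chromokinesin Kif4 (3.50), all as log2 differences. Kif23 was the gene nearest to its naive level in WT iTreg, with 2.77, 3.16 and 2.85 FPKM there and 2.85 FPKM in naive cells, while Bach2KO iTreg had 26.6, 24.6 and 25.5 FPKM.

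Centromere and kinetochore genes rose, 7 of 7, and this role held the smallest median log2 difference of the 9 roles, 2.94. Nuf2, of the Ndc80 complex that grips microtubules, had 32.8, 34.1 and 33.0 FPKM in Bach2KO iTreg and 2.11, 2.07 and 2.82 FPKM in WT iTreg, with 18.5 in Th1, 28.0 in Th2 and 18.1 in Th17 and a listed value of 0 in naive cells. Its log2 difference was 3.59 ± 0.11 (SE; adjusted p = 2.4e-06, limma). Its partner Spc25 differed by 3.50 and its partner Ndc80 by 2.66. Cenpa, the histone H3 variant that marks centromeres, had 105, 94.9 and 111 FPKM in Bach2KO iTreg and 20.9, 20.3 and 19.7 FPKM in WT iTreg, with 136 FPKM in Th1, 106 in Th2, 71.4 in Th17 and 13.9 in naive cells. The naive level of Cenpa was the second highest of the 45 genes, and its difference of 2.32 ± 0.066 (adjusted p = 2.2e-06, limma) was the smallest of the 44 that rose. Cenpe, a kinetochore motor, differed by 3.20, Cenpk by 2.85 and Cenpf, an outer kinetochore protein, by 2.94. Cenpf, at 13.9, 12.6 and 14.8 FPKM in Bach2KO iTreg, was the single gene with all Bach2KO values below all helper values, which were 18.0 in Th1, 21.8 in Th2 and 15.3 in Th17, where 17.1% of all loci compared were below.

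The spindle protein genes rose, 4 of 4. Tpx2, which activates Aurora A and nucleates microtubules around chromosomes, had the largest difference of all 45 genes, with 50.2, 49.4 and 52.4 FPKM in Bach2KO iTreg and 2.84, 3.55 and 2.85 FPKM in WT iTreg. The log2 difference was 3.84 ± 0.086 (SE; adjusted p = 1.3e-06, limma), and the other levels were 39.9 FPKM in Th1, 55.8 in Th2, 31.0 in Th17 and 0.0744 in naive cells. Hmmr, a spindle and hyaluronan-binding protein, had 29.6, 25.9 and 30.8 FPKM in Bach2KO iTreg and 1.99, 2.51 and 2.08 FPKM in WT iTreg, with 36.6 FPKM in Th1, 45.8 in Th2, 19.8 in Th17 and 0.0235 in naive cells. Its Bach2KO libraries varied most of all genes, with a coefficient of variation of 8.91%, and its log2 difference was 3.44. Nusap1, which bundles microtubules, differed by 3.61 and Prc1, which crosslinks the central spindle, by 3.50.

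The cytokinesis genes rose, 4 of 4. Shcbp1, a partner of the centralspindlin complex, had 23.8, 22.6 and 23.5 FPKM in Bach2KO iTreg and 1.69, 1.62 and 1.71 FPKM in WT iTreg, with 16.4 FPKM in Th1, 25.1 in Th2, 13.4 in Th17 and 0.0605 in naive cells. Racgap1, the centralspindlin subunit that works with Kif23, had 66.6, 68.0 and 67.8 FPKM in Bach2KO iTreg and 9.76, 11.3 and 10.5 FPKM in WT iTreg, with 38.5 FPKM in Th1, 50.1 in Th2, 37.7 in Th17 and 1.78 in naive cells. Racgap1 was above all 3 helpers in every Bach2KO library, and Shcbp1 was not. The log2 difference was 3.45 ± 0.049 for Shcbp1 (SE; adjusted p = 5.4e-07, limma) and 2.63 ± 0.058 for Racgap1 (adjusted p = 1.2e-06). Ect2, which activates RhoA at the cleavage furrow, differed by 3.08, and the ring protein anillin (Anln), the lowest gene of the set in every iTreg library, by 3.01.

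Topoisomerase II and condensin I package and untangle chromosomes, and here 5 of 6 genes rose and 1 fell. Top2a, the topoisomerase of dividing cells and the most abundant of the 45 mRNAs in Bach2KO iTreg, had 211, 219 and 207 FPKM in Bach2KO iTreg and 15.3, 15.9 and 16.8 FPKM in WT iTreg, with 212 FPKM in Th1, 260.0 in Th2, 153 in Th17 and 0.997 in naive cells. The log2 difference was 3.69 ± 0.049 (SE; adjusted p = 4.6e-07, limma). Smc2, one of the pair of ATPases at the core of condensin, had 45.7, 46.8 and 46.3 FPKM in Bach2KO iTreg and 5.41, 5.25 and 5.93 FPKM in WT iTreg, with 39.3 FPKM in Th1, 56.4 in Th2, 32.0 in Th17 and 3.95 in naive cells. Of the other condensin I subunits, Ncapd2 differed by 2.88, Ncapg by 3.53 and Ncaph by 3.58 on the log2 scale.

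Smc4, the ATPase that pairs with Smc2, ran against its partners. It had 119, 111 and 114 FPKM in Bach2KO iTreg, against 217, 209 and 208 FPKM in WT iTreg, and 96.0 FPKM in Th1, 138 in Th2, 96.5 in Th17 and 120.1 in naive cells. The WT iTreg values were the highest of all 10 libraries, the Bach2KO values were within the range of the helper libraries, and the genotypes did not overlap. The log2 difference was -0.88 ± 0.043 (SE; adjusted p = 1.2e-05, limma), a ratio of means of 0.541, and it was between -1.18 and -0.86 under all alternative settings. In naive cells Smc4 was already at 120.1 FPKM where Smc2 was at 3.95 FPKM. Smc4 lies on the plus strand of chromosome 3, at chr3:68808894-68838545 (mm9), and the gene Ift80, of intraflagellar transport, starts 402 bases away on the minus strand. Ift80, named after its values were seen, had 18.3, 16.4 and 18.6 FPKM in Bach2KO iTreg and 75.6, 70.4 and 70.9 FPKM in WT iTreg, with 15.9 FPKM in Th1, 17.9 in Th2, 16.7 in Th17 and 27.0 in naive cells, a log2 difference of -2.00 (adjusted p = 2.6e-06, limma). Both divergent neighbours were thus highest in WT iTreg. The files do not state that reads were counted by strand, so that reads of overlapping antisense transcripts in either locus cannot be told apart from its own.

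**Figure D4:**
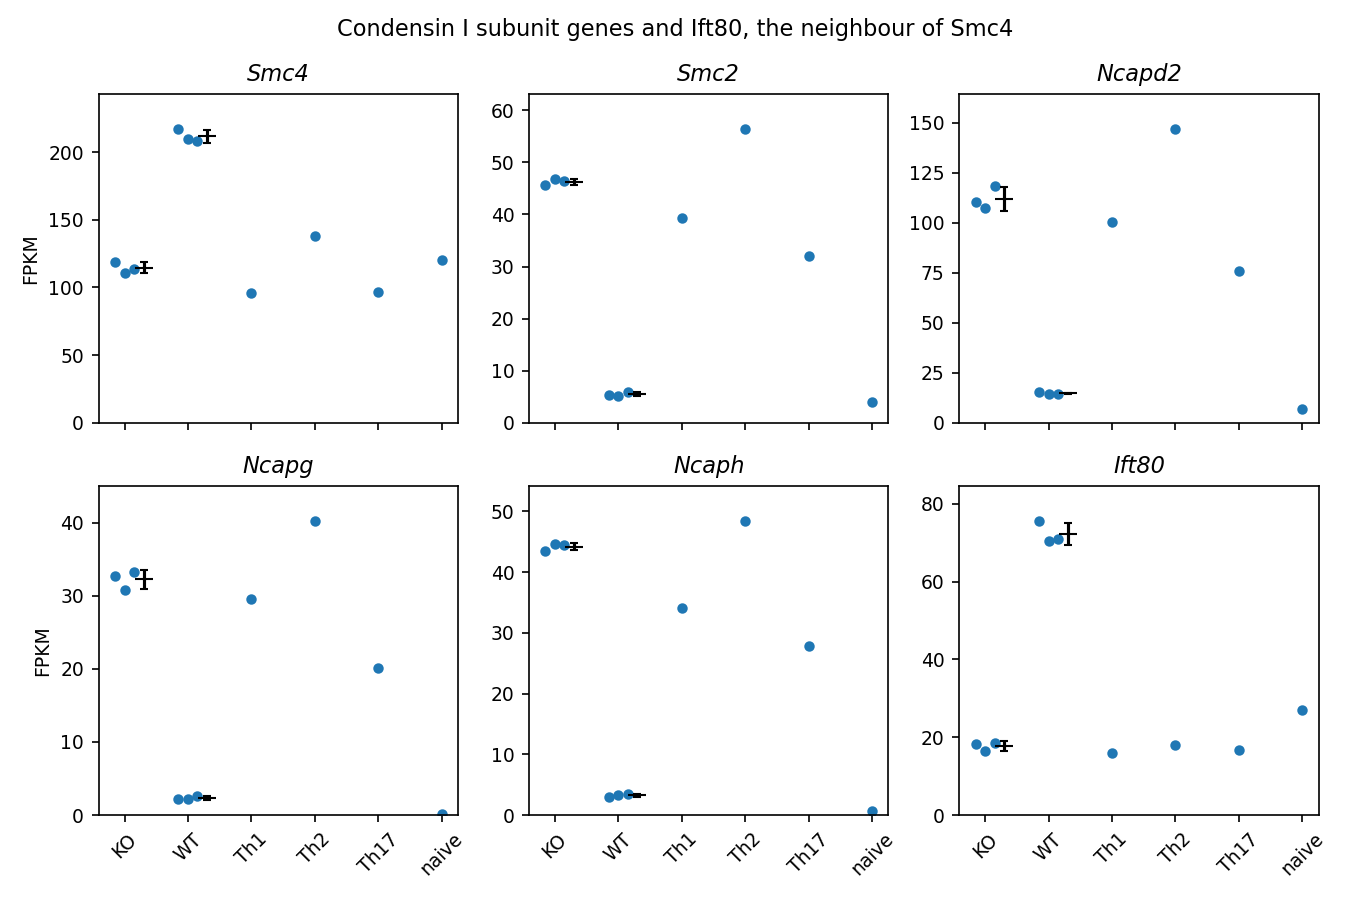
FPKM of the 5 condensin I genes and of Ift80 in each library (blue points), with the mean and SD of the 3 Bach2KO (KO) and 3 WT iTreg libraries in black. Smc4 and Ift80 are highest in WT, and Smc2, Ncapd2, Ncapg and Ncaph are low in WT and naive cells.

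Against naive cells, each helper library showed the same 44 genes at least 2-fold higher on the log2(FPKM + 0.5) scale, all but Smc4, where 29.5% of the loci compared were that much higher in Th1, 27.9% in Th2 and 25% in Th17. These libraries have no replicates, so the counts carry no test. A locus was compared if it reached 0.5 FPKM in either library. Genes below that in naive cells, where the median of the 45 genes was 0.326 FPKM, thus entered through the helper library. In the naive library 33 of the 45 genes were under 1 FPKM. WT iTreg was at least 2-fold above naive in all 3 libraries for 36 genes, where 14% of loci were. The 9 others were Kif23, Mad2l1, Smc2, Cenpa, Aurka, Ndc80, Smc4, Anln and Cenpk. All 3 WT iTreg libraries were at least 2-fold below all 3 helper libraries for 44 genes, where 6.18% of loci were.

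Bach2KO iTreg and the helper cells differed gene by gene. These comparisons use the deposited FPKM, whose sums differ between libraries, so that narrow orders depend on scaling. Median-ratio factors were 0.0775 to 0.115 log2 units in the Bach2KO libraries and -0.0772 in Th2. The Bach2KO mean was only 1.04 times the Th2 value for Cdk1, 1.09 times for Ube2c and 1.11 times for Incenp and Prc1. Such margins are within that shift. For 13 genes all 3 Bach2KO libraries were above all 3 helper libraries, where 26.6% of loci were, so this share was near that of the background. They were Birc5, Cdc20, Cdk1, Incenp, Kif20a, Kif22, Mad2l1, Nuf2, Plk1, Prc1, Racgap1, Spc25 and Ube2c, spread over most roles. Relative to Th2, the helper library with the highest level in 44 of 45 genes, the Bach2KO mean ranged from 0.508 times for Anln through 0.817 times for Top2a and 0.969 times for Ccnb1 to 1.74 times for Birc5. Among the helpers, 40 of the 45 genes followed the order Th2, Th1, Th17 from high to low, where 20.6% of loci did. The exceptions were Birc5, Cenpa, Kif22, Smc4 and Spc25, and Cenpa alone was highest in Th1.

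**Figure D5:**
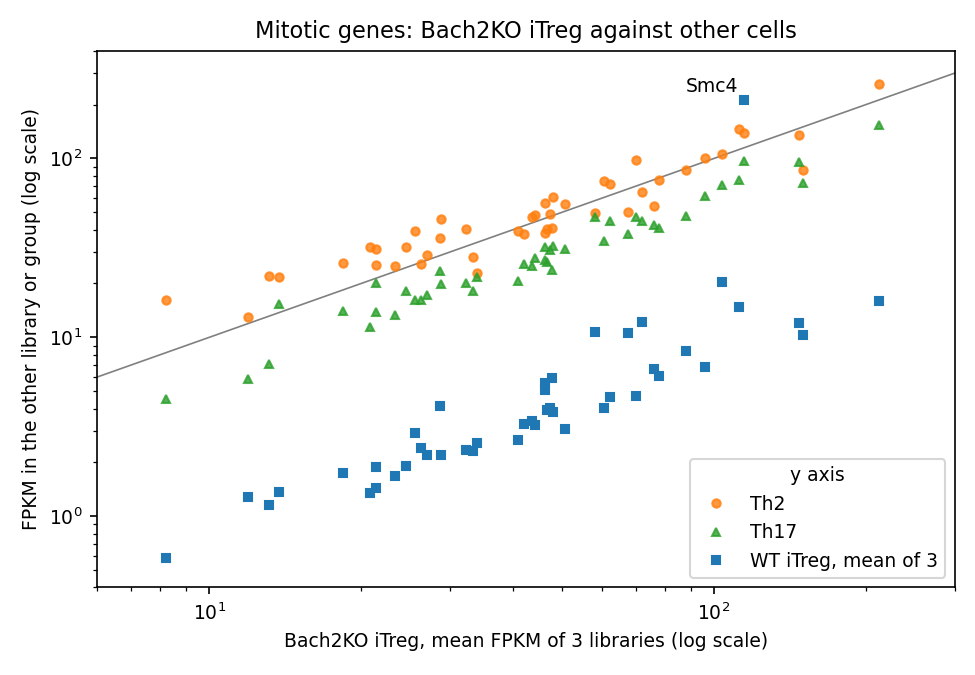
Mean FPKM of each mitotic gene in Bach2KO iTreg (x axis, 3 libraries, log scale) against its FPKM in Th2 (circles), in Th17 (triangles) and as the mean of 3 WT iTreg libraries (squares), on a log y axis with a line of equality. Th2 points lie around the line, most Th17 points lie just under it, and the WT points lie far below it except Smc4.

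Replicate spread was small beside these differences. The median coefficient of variation over the 45 genes was 2.96% in Bach2KO iTreg and 8.52% in WT iTreg, where levels were lower. Reads implied by the deposited confidence intervals, for genes with a single start, had medians of 3535 to 4071 per gene in the Bach2KO libraries, 258 to 301 in the WT libraries and 34 in the naive library, so naive levels are the least precise. Within WT iTreg, replicate 1 was the lowest for 30 of the 45 genes, and within Bach2KO iTreg, replicate 3 was the highest for 26.

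Other genes of cell division, 130 in 6 lists, were read from the same fit. All 28 tested genes of the list of other kinetochore and centromere genes were higher, with a median log2 difference of 2.74. They included Kntc1, of the complex that recruits dynein to kinetochores (3.53), the scaffold Casc5 (3.14) and the Mis12 complex subunit Pmf1 (2.52). All 25 tested genes of the list of other spindle, centrosome and cytokinesis genes were higher too, with a median of 2.92, among them the spindle proteins Spag5 (3.43), Tacc3 (3.28) and Ckap2 (3.10). Under equal sums 27 of the 28 kinetochore genes and all 25 spindle genes were still called higher.

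The remaining lists had smaller medians. Of 16 genes of the APC/C and of securin and separase, 12 were higher and 1 lower, with a median of 0.37. The higher ones were led by separase, Espl1, which cuts cohesin (21.6, 21.4 and 22.4 FPKM in Bach2KO iTreg and 1.77, 1.96 and 1.76 FPKM in WT iTreg, log2 difference 3.26), by the APC/C inhibitor Emi1, Fbxo5 (1.96), and by the activator Cdh1, Fzr1 (1.38). Pttg1 (securin), which holds separase in check, was lower, with 15.5, 14.4 and 15.3 FPKM in Bach2KO iTreg and 18.6, 18.8 and 16.7 FPKM in WT iTreg, and 23.8 FPKM in Th1, 12.8 in Th2, 9.79 in Th17 and 32.3 in naive cells. Its log2 difference was -0.25 ± 0.061 (SE; adjusted p = 0.01, limma), and the ranges of the genotypes did not overlap. The subunits Anapc7 (0.08), Cdc23 (-0.04) and Anapc2 (-0.03) were not called. The counts in this list depended on scaling, with 8 higher and 3 lower after quantile normalization, 10 and 2 after median-ratio scaling and 7 and 4 after equal sums. In the promoter table, 3 of 15 matched genes of this list held a CHR (20.0%), near the 22.2% of all tested genes. The CHR was in 12 of 22 genes of the kinetochore list, 15 of 22 of the spindle list, 4 of 9 of the cohesin and condensin II list, 10 of 23 of the list of regulators and 3 of 11 of the G1 list.

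Of 13 genes of cohesin and condensin II, 10 were higher and 1 lower, with a median of 0.80. Ncapg2, of condensin II, had 22.4, 22.1 and 22.1 FPKM in Bach2KO iTreg and 1.37, 1.23 and 1.54 FPKM in WT iTreg (log2 difference 3.60), and sororin, Cdca5, which stabilizes cohesin after replication, differed by 3.11. The cohesin ring subunit Rad21 differed by 1.25. Nipbl, the cohesin loader, was lower, with 24.9, 22.4 and 24.7 FPKM in Bach2KO iTreg and 36.8, 36.5 and 35.6 FPKM in WT iTreg (log2 difference -0.59, adjusted p = 1.3e-04, limma). Stag1 (0.04) and Stag2 (-0.12) were not called, and Stag2 was called lower under each of the 3 other scalings.

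Of 30 regulators of mitotic transcription and entry, 26 were called higher and the other 4 passed in neither direction (median 1.93). The counts were 24 higher and 2 lower after quantile normalization, 25 and 1 after median-ratio scaling and 23 and 2 after equal sums. Rb1, called higher with the deposited values (0.28), was not called under any of these scalings. Foxm1, the factor that drives late cell cycle genes, had 38.2, 39.2 and 37.4 FPKM in Bach2KO iTreg and 3.77, 4.10 and 4.05 FPKM in WT iTreg, with 21.0 FPKM in Th1, 30.2 in Th2, 18.5 in Th17 and 0.936 in naive cells, a log2 difference of 3.12 ± 0.048 (SE; adjusted p = 6.1e-07, limma). Mki67, the proliferation marker Ki-67, had 120.2, 118 and 126 FPKM in Bach2KO iTreg and 8.89, 9.89 and 9.72 FPKM in WT iTreg, with 109.6 FPKM in Th1, 166 in Th2, 99.3 in Th17 and 0.403 in naive cells. Foxm1 was above all 3 helpers in every Bach2KO library, and Mki67 lay between Th1 and Th2. Cks2, which binds cyclin-dependent kinases, differed by 2.43. The 4 that were not called were Rbl2 (p130, -0.23), Lin37 (-0.16), Nfyc, a subunit of NF-Y (0.13), and Lin52 (0.05). Of these, Rbl2, Lin37 and Lin52 belong to the DREAM complex. Other DREAM genes of the list were called higher: Tfdp1 (1.98), Rbl1 (1.87), Lin54 (1.45), Lin9 (0.90), Rbbp4 (0.87) and E2f4 (0.69). The NF-Y genes Nfya (0.20) and Nfyb (0.35) were called higher too, but neither was called after equal sums.

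In the list of G1 cyclins and inhibitors of cyclin-dependent kinases, 16 loci of 15 genes were tested, and 13 were higher and 2 lower, with a median of 1.11. Ccnd3, a D-type cyclin, differed by 1.08, and Ccne1, the cyclin of S phase entry, by 1.85. The inhibitor p21, Cdkn1a, had 81.6, 74.1 and 85.0 FPKM in Bach2KO iTreg and 2.65, 5.004 and 3.25 FPKM in WT iTreg, with 82.1 FPKM in Th1, 86.4 in Th2, 7.71 in Th17 and 0.599 in naive cells, and its log2 difference of 4.33 ± 0.2 (SE; adjusted p = 1.1e-05, limma) exceeded that of each of the 45 mitotic genes. The inhibitor p27, Cdkn1b, was lower, with 45.4, 31.6 and 52.0 FPKM in Bach2KO iTreg and 76.6, 78.4 and 71.9 FPKM in WT iTreg, and 61.4 FPKM in Th1, 70.1 in Th2, 69.1 in Th17 and 90.8 in naive cells. Its log2 difference was -0.84 ± 0.18 (SE; adjusted p = 0.0057, limma). The inhibitors p21 and p27 thus differed in opposite directions. Cdkn1c (p57) was lower at under 1 FPKM in all 6 libraries (-0.48), and Ccnd1 (-0.23) was not called, although it was called lower after quantile normalization and after equal sums.

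The ChIP peak list from WT iTreg, with 22494 peaks from 1 library, gives where peaks of the Bach2 ChIP were called near these genes, with scores as the authors' peak caller gave them. A gene was counted if any part of a peak overlapped the window, wherever the summit lay. From 10 kb upstream to the end of the gene, 17 of the 45 genes (37.8%) had a peak, against 51.7% of 11157 expressed loci. The median gene length, however, was 29522 bases for the mitotic genes and 19561 for all. With 50 kb upstream in place of 10, 26 genes had a peak (57.8%), against 72.1% of loci. Within 1 kb of the start, 3 genes had a peak (6.7%), against 19.2% of loci. These were Cdca8, with a summit at -163 bases from the start and a deposited fold enrichment of 6.84, Ndc80, at -526 with 5.19, and Ncapd2, at 134 with 5.26. With a deposited score of at least 100, 6 genes (13.3%) had a peak, against 35.8% of loci. The tallest member peak by score, 692.39 with 123 tags, lay 5404 bases upstream of Ncaph. TGANTCA lay within 50 bases of the summit in 5 of 23 member peaks (21.7%), against 33.5% of all peaks. The share of mitotic genes with a peak was thus below that of expressed loci at each of the 4 settings. The genes with a peak were Ccnb2, Cdca8, Cenpk, Ect2, Kif11, Kif20a, Kif22, Kif2c, Ncapd2, Ncaph, Ndc80, Nusap1, Prc1, Racgap1, Smc4, Top2a and Tpx2, all of which rose except Smc4.

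Smc4 had the most peaks of the 45 genes, 3, all with summits in introns of the mm9 annotation. The summit 8665 bases after its start had a deposited fold enrichment of 16.9, the one at 22747 bases 20.7 and the one at 27349 bases 13.27. The first also lies within 10 kb upstream of Ift80. The 101 bases around the summits of the first peak and of the second, the stronger one, are shown on the plus strand of mm9, at chr3:68817509-68817609 and chr3:68831591-68831691, since Smc4 is the gene that fell. Capitals mark TGANTCA.
Smc4 peak 1: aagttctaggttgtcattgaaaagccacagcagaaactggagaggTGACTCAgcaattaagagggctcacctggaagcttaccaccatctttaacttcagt
Smc4 peak 2: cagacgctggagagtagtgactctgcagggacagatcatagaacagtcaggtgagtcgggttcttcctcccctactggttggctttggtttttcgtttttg
The first window holds TGACTCA close to its summit, and the second holds no TGANTCA in these letters.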

How the data were processed

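RNA was measured in 10 libraries and Bach2 binding in 1 ChIP library with its input. The authors' FPKM values come from unique 50 bp reads aligned to mm9 with TopHat and quantified with Cufflinks, per the labels' protocols and the submitters' processing notes. For the RNA tools, versions and annotation were not given in the sources used here. FPKM depth is known only through reads implied by the deposited confidence intervals, which cover counting error only. Peaks were called by the authors with MACS 1.4.0beta from 8992019 ChIP tags and 9999999 input tags at a p-value cutoff of 1e-05, per the file headers, with tags aligned to mm9 by Bowtie according to the processing notes of the submitters. The deposited tag counts per peak, the score (10 times −log10 of p), the fold enrichment (a ratio) and the FDR in percent are the authors' values, per the file headers, and were used only to describe or filter peaks.

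Bach2KO and WT iTreg libraries, 3 each, were tested against each other by limma (3.58.1, under R 4.3.3) with a mean-variance trend in eBayes, on log2(FPKM + 0.5) over 11473 loci with a mean of at least 0.5 FPKM, two-sided, with Benjamini-Hochberg adjustment over all of them and 0.05 as the threshold. This scale understates changes of low genes. The single libraries stayed out of it. Members, lists and tests were chosen with earlier results of these data known. Values in every library are given for Cdk1, Ccnb1, Plk1, Aurkb, Cdc20, Top2a and the largest and smallest difference of each role. Per further list, up to 3 called genes by adjusted p and up to 4 genes lower or not called are named, at least by log2 difference. Gene starts and peak bases came from the GENCODE annotation and genome of mm9, and promoters from RefSeq (GRCm38.p6). Alternatives were other pseudocounts, filters and scalings, a robust variance, a replicate block, leaving out each library, other peak windows and a narrower promoter window.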

Additional observations from a re-analysis of the deposited data

How the results depend on the processing

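Each of the 45 mitotic genes kept its direction and its call under all 15 alternatives to the limma comparison, with 44 higher and Smc4 lower, and their median log2 difference ran from 3.17 (equal sums) to 3.60 (pseudocount 0.1). Leaving out each library in turn gave medians of 3.37 to 3.44. With a replicate block the count was again 44 higher and 1 lower. Same-numbered libraries of the genotypes correlated by -0.038, -0.038 and 0.006 in their deviations, so no shared deviation by number was seen. The labels do not state a pairing, and these values cannot exclude one. The block lowered the calls over all loci to 4346 higher and 3540 lower.

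Of the 6 further lists, 4 loci were called lower with the deposited values, 10 after quantile normalization, 7 after median-ratio scaling and 12 after equal sums. Each of these scalings lowered the median log2 difference of all loci, from 0.07 to -0.09, 0.0005 and -0.19 in the same order. Mitotic genes with a Bach2 peak numbered 17, but 26 with 50 kb upstream, 3 within 1 kb of the start and 6 at a score of at least 100, as window and threshold set them. CHR and CCAAT counts of 32 and 29 were 29 and 26 between 100 bases before and 50 after the start. Naive levels rest on few reads, and the single libraries have no replicate check.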
